A study of Homo sapiens with 18 samples.

Results

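The regions described here lie at VIM and at 9 other genes of the epithelial-to-mesenchymal transition, CDH1, CDH2, FN1, ZEB1, ZEB2, SNAI1, SNAI2, TWIST1 and TWIST2. ATAC-seq reads open chromatin through the adapters that the transposase Tn5 inserts there, and the authors merged the peaks of all libraries into 1 table of 115087 regions. Every region that overlapped the body of 1 of the 10 genes, extended by 20 kb on both sides, was taken, with gene bodies from GENCODE release 44 on GRCh37 (hg19). This gave 78 of the 115087 regions. CDH2 had 15, CDH1 12, ZEB1 10, FN1 and TWIST1 9 each, VIM and ZEB2 6 each, SNAI2 5, and SNAI1 and TWIST2 3 each. GENCODE gives TWIST1 long transcripts, so its body spans 96.6 kb and takes in regions far from the short classical gene.

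On GRCh37 the mesenchymal and epithelial genes are VIM (ENSG00000026025, chr10:17270240-17279592, plus strand), FN1 (ENSG00000115414, chr2:216225163-216300796, minus strand), CDH1 (ENSG00000039068, chr16:68771195-68869440, plus strand) and CDH2 (ENSG00000170558, chr18:25512843-25757910, minus strand). The factors are ZEB1 (ENSG00000148516, chr10:31607424-31818742, plus strand), ZEB2 (ENSG00000169554, chr2:145121931-145278624, minus strand), SNAI1 (ENSG00000124216, chr20:48599517-48605423, plus strand), TWIST1 (ENSG00000122691, chr7:19060614-19157259, minus strand) and TWIST2 (ENSG00000233608, chr2:239756673-239832230, plus strand). SNAI2 lies elsewhere (ENSG00000019549, chromosome 8, minus strand).

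The samples were SCC1, SCC6 and SCC25, established lines of human head and neck squamous cell carcinoma. Cells of each line received cetuximab, an antibody that blocks the epidermal growth factor receptor, at 100 nM daily for 5 days, or PBS as the control. There were 17 libraries in 6 groups of 3, except SCC1 PBS with 2, since its replicate 2 was not analysed here. Each line is a cultured tumour line without stroma, and no source used here says whether replicates were grown apart, so p-values measure only the spread between these libraries.

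Reads in regions ranged from 2194851 to 4171650 per library in SCC1, from 4098164 to 15017130 in SCC6 and from 2513828 to 13408698 in SCC25. Squamous identity was checked at promoter regions. All 8 squamous epithelial markers (KRT5, KRT14, KRT17, TP63, EPCAM, CDH1, CDH3 and SFN) had one, with a summed signal of 381 to 1057 per library. KRT14 was close to 1 read in SCC6, with means of 1.82 (cetuximab) and 1.66 (PBS), beside 32.1 to 70.3 in the other groups. Of the markers of other cells, 4 of 7 fibroblast genes (COL1A1, COL1A2, DCN and PDGFRA) had a promoter region, at a summed 132 to 253. DCN had group means of only 0.649 to 3.68. Of 5 leukocyte genes, 1 had a promoter region (CD14), at 3.03 to 92.4. PTPRC, CD3E and SPI1 had no promoter region, and neither did the 5 endothelial genes. Some of these moved with treatment, and their part in the results was not tested. CD14 had 24.1 to 42.3 with cetuximab and 81.5 to 92.4 with PBS in SCC1, and 3.03 to 4.63 and 7.25 to 13.1 in SCC6. The summed fibroblast genes had 142 to 183 with cetuximab and 132 to 139 with PBS in SCC6. Depth moved too, since the deepest SCC1 library had PBS and the deepest SCC6 library cetuximab. Copy number was not analysed here, so between lines a difference in DNA copies and one in accessibility cannot be told apart.

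In the epithelial-to-mesenchymal transition, cells loosen their junctions and take on a migratory form. CDH1 encodes E-cadherin, the adhesion molecule of epithelial junctions, while CDH2 (N-cadherin), VIM (vimentin, an intermediate filament) and FN1 (fibronectin, a matrix glycoprotein) are classical mesenchymal markers. The ZEB and SNAI zinc-finger proteins and the TWIST helix-loop-helix proteins are the best known factors of the transition, and they bind E-boxes such as CAGGTG, among them those of the CDH1 promoter. Growth factor signalling reaches many enhancers through AP-1, a dimer of FOS and JUN proteins that binds TGANTCA.

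The following stretches are shown because large treatment differences fell on them. Each is the plus strand of GRCh37 from the middle of a region, 5′ to 3′, without bases annotated as UTR. Capitals mark CAGGTG or TGANTCA on either strand. In the TWIST1 stretch an E-box and an AP-1 match overlap.
VIM, 11.8 kb upstream, chr10:17258335-17258634: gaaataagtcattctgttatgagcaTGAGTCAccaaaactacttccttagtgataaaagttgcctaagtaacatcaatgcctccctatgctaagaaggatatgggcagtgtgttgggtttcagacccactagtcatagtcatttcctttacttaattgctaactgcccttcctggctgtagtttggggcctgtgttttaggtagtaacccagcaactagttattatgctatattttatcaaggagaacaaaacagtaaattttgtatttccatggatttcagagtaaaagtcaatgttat
FN1 promoter, chr2:216300852-216301151: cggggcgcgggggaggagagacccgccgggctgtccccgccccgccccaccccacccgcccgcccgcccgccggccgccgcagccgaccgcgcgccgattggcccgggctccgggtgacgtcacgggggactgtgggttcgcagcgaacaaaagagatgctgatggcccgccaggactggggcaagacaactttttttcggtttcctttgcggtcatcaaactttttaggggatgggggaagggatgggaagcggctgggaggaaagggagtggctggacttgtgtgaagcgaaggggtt
FN1, 26.6 kb from the start, chr2:216274041-216274340: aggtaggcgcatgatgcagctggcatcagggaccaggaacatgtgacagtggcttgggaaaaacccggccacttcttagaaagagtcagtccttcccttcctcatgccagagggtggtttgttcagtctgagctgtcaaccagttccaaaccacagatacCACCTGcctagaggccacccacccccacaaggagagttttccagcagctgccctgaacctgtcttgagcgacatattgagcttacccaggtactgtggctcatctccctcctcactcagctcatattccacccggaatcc
TWIST1, 16.9 kb from the start, chr7:19140211-19140445: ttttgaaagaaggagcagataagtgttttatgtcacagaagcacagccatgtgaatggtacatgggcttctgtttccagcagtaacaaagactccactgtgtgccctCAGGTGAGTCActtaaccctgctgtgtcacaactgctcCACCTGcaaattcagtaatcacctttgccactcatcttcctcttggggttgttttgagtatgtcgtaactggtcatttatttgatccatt
TWIST2, 79.8 kb from the start, chr2:239836292-239836572: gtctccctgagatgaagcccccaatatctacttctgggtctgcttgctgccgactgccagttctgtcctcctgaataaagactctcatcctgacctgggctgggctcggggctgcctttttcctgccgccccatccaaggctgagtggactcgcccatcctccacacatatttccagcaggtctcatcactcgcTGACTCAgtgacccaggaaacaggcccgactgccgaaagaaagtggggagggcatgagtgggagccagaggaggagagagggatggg

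Values are the deposited signal, which is reads in a region scaled per library. The lowest value of every library is 1 read, and 3251 regions are listed at it in all 17 libraries, so a listed 1 read is no measured level. Changes were tested with limma on log2(signal + 1) over all regions, leaving out the 25% lowest in mean, with Benjamini-Hochberg adjustment and a call at an adjusted p under 0.05. A log2 change is cetuximab minus PBS on that scale, which understates the change of low regions.

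Cetuximab changed accessibility at these genes in SCC1 and SCC6, in both directions, and no change was called in SCC25. In SCC1, 59 of the 78 regions passed the filter, of which 3 were higher after cetuximab (5.08%, against 4.58% of all regions tested) and 5 lower (8.47%, against 6.56%). In SCC6, 61 passed, of which 11 were higher (18.0%, against 16.9%) and 10 lower (16.4%, against 10.6%). The median log2 change of the regions was -0.022 in SCC1 and 0.14 in SCC6, beside -0.092 and 0.11 over all regions. The shares were near those of all regions in most of these counts and are no result about the 10 genes as a group. With libraries centred on their medians, the median over all regions was 0.097 in SCC1 and -0.060 in SCC6. In SCC1, 6 of the 78 regions were then higher and 4 lower, beside 6852 and 3647 of all 86298 regions tested. All SCC6 regions went from 14622 higher and 9152 lower to 10394 and 15782. Without SCC1 PBS replicate 3, 2 of the 78 regions were called in SCC1, beside 3138 of all 86194 regions tested.

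**Figure D1:**
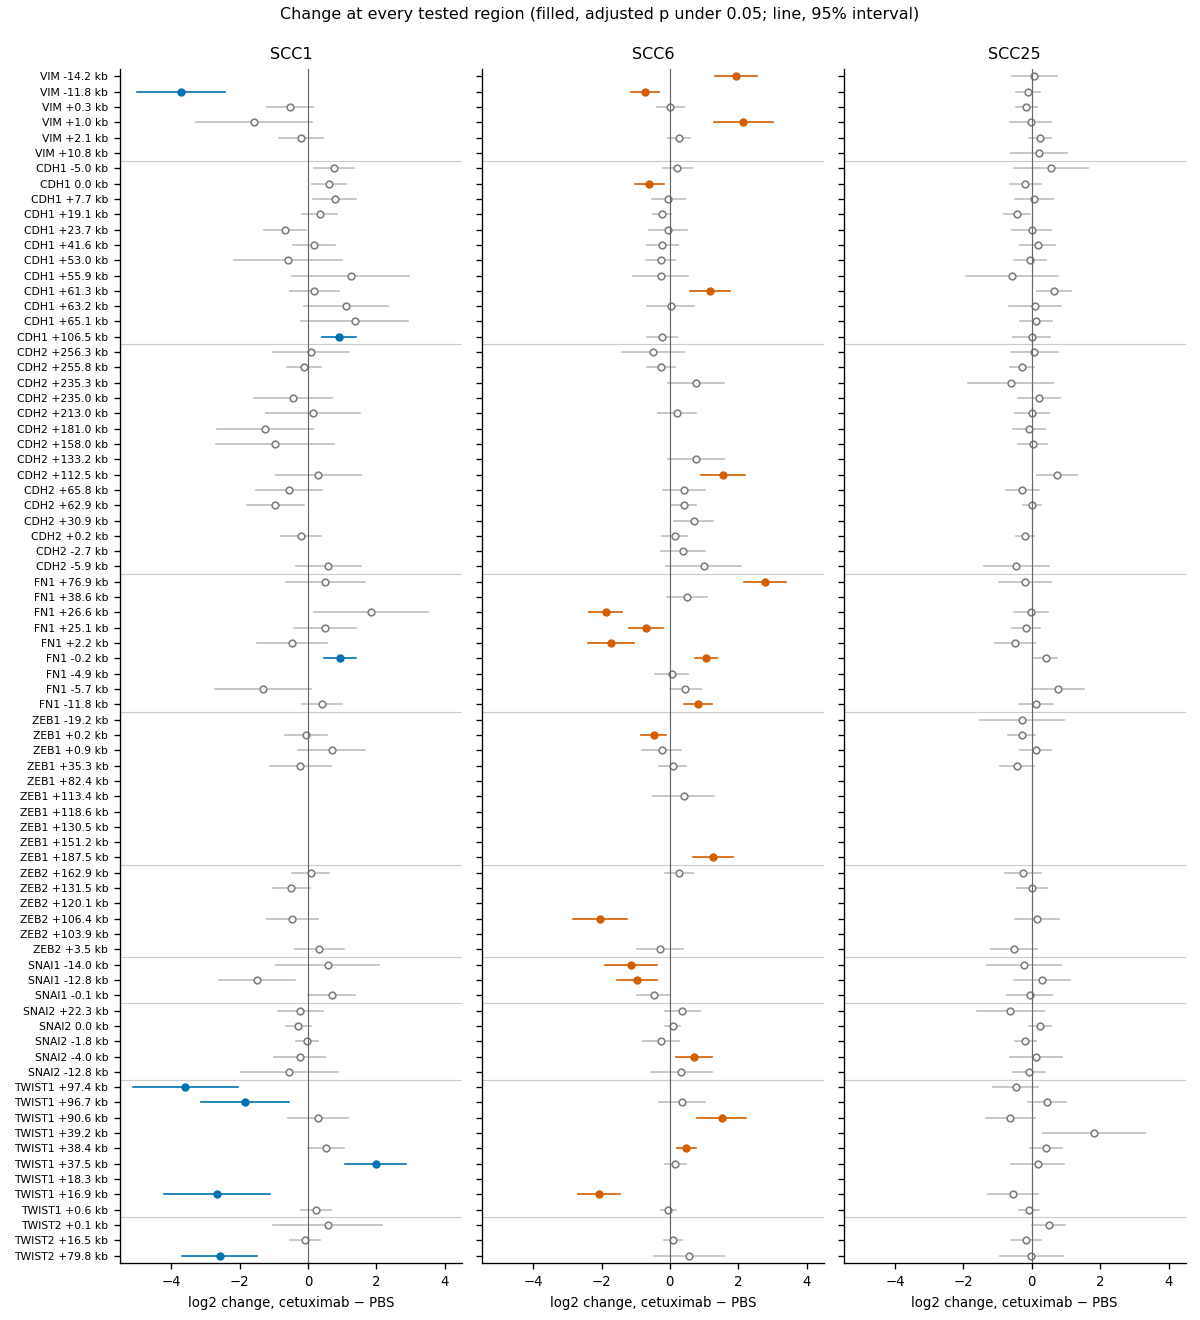
Log2 change (cetuximab minus PBS) of each tested region in SCC1, SCC6 and SCC25 with its 95% interval, where filled points have an adjusted p under 0.05 and a missing point marks a region left out as low. Regions are named by the distance of their centre from the gene start, and 8 points are filled in SCC1, 21 in SCC6 and none in SCC25.

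At VIM, a region 11.8 kb upstream of the gene lost signal with cetuximab in SCC1 and, in part, in SCC6. It overlaps the antisense gene VIM-AS1 and lies within 1 kb of a start site of it (chr10:17258234-17258734). In SCC1 this region had a signal of 57.2 and 68.1 with PBS, and of 14.0, 1.95 and 1.56 with cetuximab, the last 2 at 1 read. The groups did not overlap (log2 change -3.71, 95% interval -4.99 to -2.44, limma adjusted p = 4.17e-06). In SCC6 it had 89.4, 76.9 and 84.8 with PBS and 47.5, 43.6 and 61.2 with cetuximab, again without overlap (log2 change -0.72, 95% interval -1.14 to -0.31, limma adjusted p = 0.00678). With all libraries in 1 fit the adjusted p in SCC6 was 0.208. SCC25 had 126, 88.7 and 129 with PBS and 99.8, 97.7 and 115 with cetuximab, with overlap (log2 change -0.12, 95% interval -0.47 to 0.24, limma adjusted p = 0.817). Effects differed among the lines (limma interaction adjusted p = 0.000179). The stretch of this region printed above holds 1 AP-1 match.

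Other VIM regions opened in SCC6. The region 14.2 kb upstream had 8.46, 20.7 and 14.1 with PBS and 51.5, 58.5 and 54.9 with cetuximab, so every treated library lay above every untreated one (log2 change 1.94, 95% interval 1.33 to 2.55, limma adjusted p = 2.02e-06). The region centred 1.01 kb into the gene, in UTR sequence, had 4.83, 4.01 and 6.53 with PBS and 27.3, 22.3 and 28.1 with cetuximab (log2 change 2.15, 95% interval 1.28 to 3.02, limma adjusted p = 0.000131). The latter rests on 4 to 85 reads per SCC6 library. It also overlaps VIM-AS1 and lies within 1 kb of a start site of that gene. In SCC1 it held 1 read in each cetuximab library and 3.90 and 11.2 in signal with PBS. Its effects differed among the lines (limma interaction adjusted p = 0.000777).

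The VIM promoter region, taken by its signal as the one 2.11 kb into the gene, passed in no line. Its mean signal in SCC1 was 57.9 ± 19.3 (SD, n = 2) with PBS and 49.6 ± 12.3 (n = 3) with cetuximab. It was 108 ± 23.6 and 128 ± 5.86 in SCC6, and 104 ± 5.58 and 123 ± 15.0 in SCC25 (n = 3 each). The 95% intervals of the log2 change were -0.85 to 0.43 in SCC1, -0.059 to 0.58 in SCC6 and -0.097 to 0.56 in SCC25, with limma adjusted p of 0.754, 0.218 and 0.562. The region at the main VIM start, centred 0.335 kb into the gene, was not called in any line either. In SCC1 it had 59.8 and 60.3 with PBS and 50.8, 33.1 and 42.3 with cetuximab, without overlap. In SCC6 and SCC25 its groups overlapped. Both regions lie within 1 kb of a start site of VIM-AS1.

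**Figure D2:**
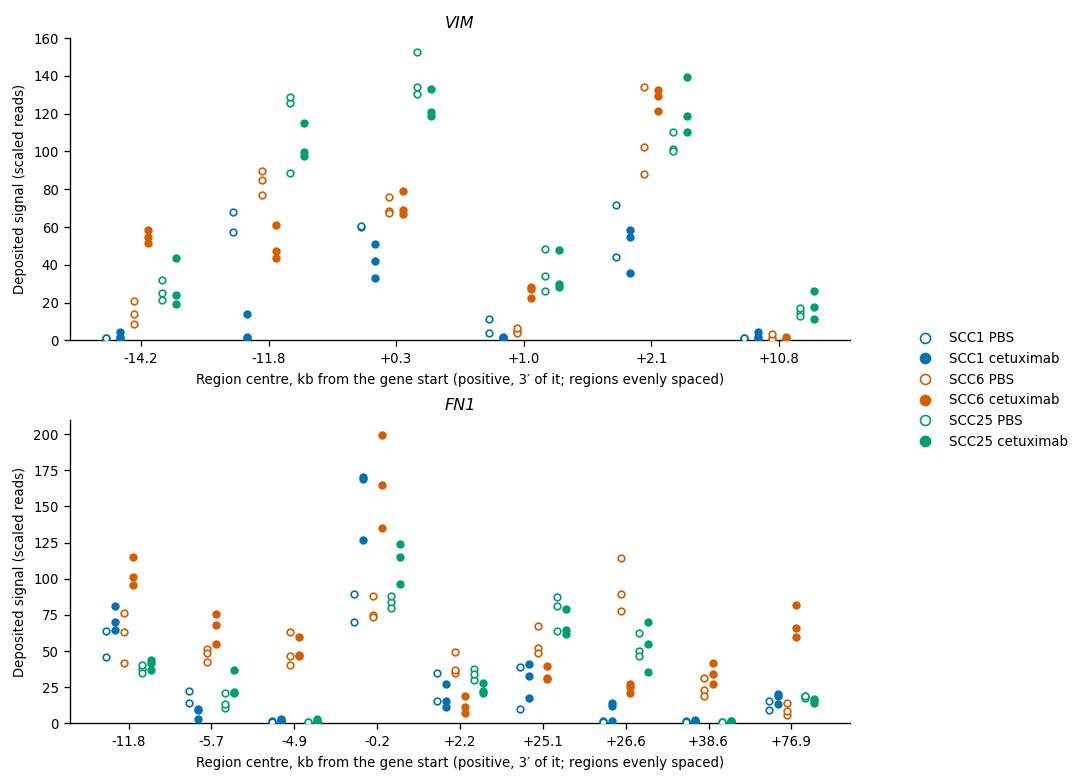
Deposited signal of every library at the 6 VIM regions (top) and the 9 FN1 regions (bottom), by the distance of the region centre from the gene start in kb, with open points for PBS and filled points for cetuximab. The SCC1 points 11.8 kb upstream of VIM go from 57.2 and 68.1 to at most 14.0, and at the FN1 promoter the filled SCC1 and SCC6 points lie above the open ones.

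FN1 had calls in 6 of its 9 regions in SCC6, 3 higher and 3 lower. Its promoter region (chr2:216300643-216301359), which also overlaps the divergent transcript FN1-DT, opened in SCC1 and SCC6. In SCC1 it had 89.8 and 70.3 with PBS and 170.1, 127 and 169 with cetuximab (log2 change 0.94, 95% interval 0.48 to 1.41, limma adjusted p = 0.00249). Leaving out SCC1 PBS replicate 3 gave an adjusted p of 0.154. In SCC6 it had 74.9, 73.6 and 88.1 with PBS and 135, 199.6 and 165 with cetuximab (log2 change 1.06, 95% interval 0.73 to 1.38, limma adjusted p = 1.05e-06). In both lines each treated library lay above each untreated one. SCC25 had 84.0, 80.0 and 88.2 with PBS and 115, 96.4 and 124 with cetuximab, which did not overlap either but did not pass (log2 change 0.40, 95% interval 0.051 to 0.75, limma adjusted p = 0.302). In the fit over all lines the promoter rose (log2 change 0.79, 95% interval 0.53 to 1.05, limma adjusted p = 0.000418), and the effects did not differ past the threshold (limma interaction adjusted p = 0.14).

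Within and beyond the FN1 gene, single regions moved in opposite directions in SCC6. The region 76.9 kb from the start, beyond the end of the gene, had 6.04, 14.1 and 8.70 with PBS and 81.8, 59.4 and 65.8 with cetuximab (log2 change 2.78, 95% interval 2.16 to 3.41, limma adjusted p = 1.05e-09). The coding-exon region 26.6 kb from the start had 89.4, 77.6 and 114 with PBS and 21.2, 25.1 and 27.4 with cetuximab (log2 change -1.88, 95% interval -2.36 to -1.40, limma adjusted p = 2.18e-08). The groups were apart at both. The first had log2 changes of 0.51 in SCC1 and -0.21 in SCC25, neither called, and its effects differed among the lines (limma interaction adjusted p = 0.000644). The second differed too (limma interaction adjusted p = 0.0012), and in SCC1 it was at 1 read in both PBS libraries and at 1 to 11 reads in the cetuximab libraries.

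Of the other FN1 regions in SCC6, the intronic one 2.24 kb from the start fell by 1.72 on the log2 scale (limma adjusted p = 8.77e-05). The intronic one at 25.1 kb fell by 0.71 (limma adjusted p = 0.0267), and that 11.8 kb upstream rose by 0.82 (limma adjusted p = 0.00145).

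At CDH1, the epithelial counterpart, the promoter region lost signal in SCC6, where it had 93.0, 64.9 and 81.6 with PBS and 42.4, 56.6 and 57.2 with cetuximab, without overlap (log2 change -0.60, 95% interval -1.03 to -0.18, limma adjusted p = 0.0282). In SCC1 it had 63.8 and 91.6 with PBS and 151, 91.5 and 121 with cetuximab (log2 change 0.63, 95% interval 0.13 to 1.12, limma adjusted p = 0.0911), and SCC25 had 64.1, 55.5 and 56.8 with PBS and 47.8, 63.8 and 44.3 with cetuximab (log2 change -0.19, 95% interval -0.64 to 0.26, limma adjusted p = 0.755). Only the SCC6 difference passed, and the effects differed among the lines (limma interaction adjusted p = 0.0341). Without SCC6 cetuximab replicate 1, PBS replicate 1 or PBS replicate 3 the adjusted p in SCC6 was 0.126, 0.14 or 0.0853, and with the GC trend removed it was 0.0741. The interaction was lost with the GC trend removed (0.164) and without SCC1 cetuximab replicate 1 or 3, SCC1 PBS replicate 1, SCC6 cetuximab replicate 1 or SCC6 PBS replicate 1 or 3 (0.0557 to 0.205).

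Elsewhere in CDH1, the intronic region 61.3 kb from the start opened in SCC6, where it had 15.7, 18.1 and 19.6 with PBS and 46.5, 35.3 and 41.7 with cetuximab (log2 change 1.16, 95% interval 0.58 to 1.75, limma adjusted p = 0.00195). In the fit over all lines its log2 change was 0.70 (limma adjusted p = 0.0142). In SCC1 the only call in the CDH1 window was within 1 kb of a start site of the neighbouring gene TANGO6, 106 kb from the CDH1 start (log2 change 0.91, 95% interval 0.42 to 1.41, limma adjusted p = 0.00684). The other 9 CDH1 regions passed in no line, with log2 changes from -0.67 to 1.37 where tested.

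CDH2 had 1 call in SCC6 and none in SCC1. The intronic region 112 kb from its start had 15.7, 17.4 and 8.70 with PBS and 42.4, 43.6 and 37.7 with cetuximab in SCC6 (log2 change 1.55, 95% interval 0.92 to 2.19, limma adjusted p = 0.000158). The intronic region 62.9 kb from the start differed in its effect among the lines (limma interaction adjusted p = 0.00558, or 0.0513 with the GC trend removed and a replicate block). It had 42.9 and 43.5 with PBS and 24.1, 27.3 and 15.7 with cetuximab in SCC1, and 73.7, 68.2 and 78.3 with PBS and 85.9, 97.5 and 111 with cetuximab in SCC6. The libraries lay apart in opposite directions, though neither line passed on its own (limma adjusted p of 0.134 and 0.0835). The CDH2 promoter had log2 changes of -0.20, 0.14 and -0.20 in SCC1, SCC6 and SCC25 (limma adjusted p of 0.747, 0.588 and 0.532), and the sign in SCC6 turned after centring.

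Among the zinc-finger factors, the ZEB1 promoter lost signal in SCC6, where it had 101, 85.0 and 116 with PBS and 76.8, 71.5 and 66.8 with cetuximab (log2 change -0.48, 95% interval -0.84 to -0.11, limma adjusted p = 0.0429). This region also overlaps the antisense gene ZEB1-AS1 and lies within 1 kb of a start site of it. The adjusted p in SCC6 was 0.0998 with the GC trend removed. It was 0.0936, 0.0824, 0.0928 and 0.2 without SCC6 cetuximab replicates 2 and 3 and PBS replicates 1 and 3, in turn. The ZEB1 intron 187 kb from the start rose in SCC6, where it had 21.7, 21.4 and 15.2 with PBS and 63.6, 46.4 and 35.7 with cetuximab (log2 change 1.25, 95% interval 0.68 to 1.83, limma adjusted p = 0.000722). With the GC trend removed the log2 change was 0.76. Each SCC1 and SCC25 library was listed at 1 read there. In ZEB2, the intronic region 106 kb from the start closed in SCC6, where it had 31.4, 30.8 and 28.3 with PBS and 4.04, 7.43 and 9.26 with cetuximab (log2 change -2.04, 95% interval -2.83 to -1.25, limma adjusted p = 7.57e-05). Its log2 changes were -0.45 in SCC1 and 0.15 in SCC25, neither called, and the effects differed (limma interaction adjusted p = 0.00946). The ZEB2 promoter region, taken by its signal as the one 3.49 kb into the gene, passed in no line (limma adjusted p of 0.628, 0.526 and 0.515). It held 11 to 78 reads per library and lies within 1 kb of a start site of ZEB2-AS1.

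Both regions upstream of SNAI1 fell in SCC6. That at 12.8 kb had 27.8, 47.5 and 54.4 with PBS and 20.2, 20.4 and 21.5 with cetuximab, without overlap (log2 change -0.97, 95% interval -1.56 to -0.39, limma adjusted p = 0.00963), and that at 14.0 kb fell by 1.14 on the log2 scale (limma adjusted p = 0.0217). The adjusted p of the former was 0.0662 and 0.0856 without SCC6 PBS replicates 2 and 3, in turn. The SNAI1 promoter had 32.5 and 32.4 with PBS and 54.6, 50.6 and 54.8 with cetuximab in SCC1 and 49.5, 52.9 and 66.3 with PBS and 38.4, 33.4 and 48.9 with cetuximab in SCC6. The groups were apart in opposite directions, and neither passed (limma adjusted p of 0.2 and 0.129). The SNAI2 promoter, on chromosome 8, had 282 and 266 with PBS and 246, 191 and 246 with cetuximab in SCC1 (log2 change -0.28, 95% interval -0.63 to 0.081, limma adjusted p = 0.364). The only SNAI2 call was 3.97 kb upstream, where SCC6 had 27.8, 24.1 and 28.3 with PBS and 44.4, 44.6 and 43.0 with cetuximab (log2 change 0.70, 95% interval 0.17 to 1.23, limma adjusted p = 0.0413). It was lost without any 1 of the 6 SCC6 libraries (0.056 to 0.125) and after centring (0.12). With the GC trend removed its log2 change was 0.34 (adjusted p = 0.331).

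TWIST1 changed away from its promoter. The intronic region 16.9 kb from its start closed in SCC6, where it had 87.0, 44.2 and 45.7 with PBS and 14.1, 14.9 and 9.26 with cetuximab (log2 change -2.08, 95% interval -2.70 to -1.46, limma adjusted p = 6.9e-07). It closed in SCC1 as well, from 19.5 and 25.7 to 1.27, 7.79 and 1.56 (log2 change -2.66, 95% interval -4.21 to -1.10, limma adjusted p = 0.0132). A pseudocount of 5 gave -1.76 in SCC1, where 2 treated libraries were at 1 read. The SCC1 call was lost without cetuximab replicate 1 (0.0668), PBS replicate 1 (0.166) or PBS replicate 3 (0.226). SCC25 had 23.7, 20.2 and 29.7 with PBS and 11.2, 17.6 and 21.3 with cetuximab and did not pass (log2 change -0.56, 95% interval -1.29 to 0.18, limma adjusted p = 0.527). In the fit over all lines this region fell by 1.70 on the log2 scale (limma adjusted p = 0.00188). Its sequence, printed above, holds 2 E-boxes and 1 AP-1 match.

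Further from the TWIST1 start, the region at 97.4 kb had 32.5 and 38.0 with PBS in SCC1 and 1 or 2 reads in each cetuximab library (log2 change -3.60, 95% interval -5.13 to -2.06, limma adjusted p = 0.000329). The size of that change depended on the pseudocount (-2.52 with 5), and without SCC1 PBS replicate 3 the adjusted p was 0.053. The region at 37.5 kb went the other way in SCC1, where it had 14.3 and 7.82 with PBS and 38.1, 52.6 and 45.4 with cetuximab (log2 change 1.98, 95% interval 1.10 to 2.87, limma adjusted p = 0.000663), with an adjusted p of 0.0557 without PBS replicate 3. Effects differed among the lines at both (limma interaction adjusted p of 0.00141 and 0.00447). The neighbouring region at 96.7 kb fell in SCC1 as well, by 1.84 on the log2 scale (limma adjusted p = 0.0466). In SCC6 the regions at 90.6 and 38.4 kb rose by 1.51 and 0.48 on the log2 scale (limma adjusted p of 0.000918 and 0.00808). The TWIST1 promoter passed in no line, with log2 changes of 0.24, -0.046 and -0.087 in SCC1, SCC6 and SCC25.

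Beyond the end of TWIST2, 79.8 kb from its start, a region closed in SCC1, where it had 62.5 and 75.9 with PBS and 16.5, 1.95 and 29.7 with cetuximab (log2 change -2.58, 95% interval -3.69 to -1.48, limma adjusted p = 0.000776). DESeq2 on the recovered reads gave an adjusted p of 0.209. Without SCC1 cetuximab replicate 2 the log2 change was -1.59. Effects differed among the lines (limma interaction adjusted p = 0.0305), which was lost without SCC1 cetuximab replicate 2, SCC1 PBS replicates 1 or 3, SCC6 cetuximab replicates 1 or 3 or SCC6 PBS replicate 1 (0.0505 to 0.121).

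In SCC25, 64 of the 78 regions passed the filter and limma called none, beside 0.315% of all regions tested. At an unadjusted p under 0.05 there were 7, and edgeR and DESeq2 on the recovered reads called none. The 95% interval of the promoter's log2 change was -0.48 to 0.068 at CDH2, 0.051 to 0.75 at FN1 and -0.69 to 0.085 at ZEB1.

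**Figure D3:**
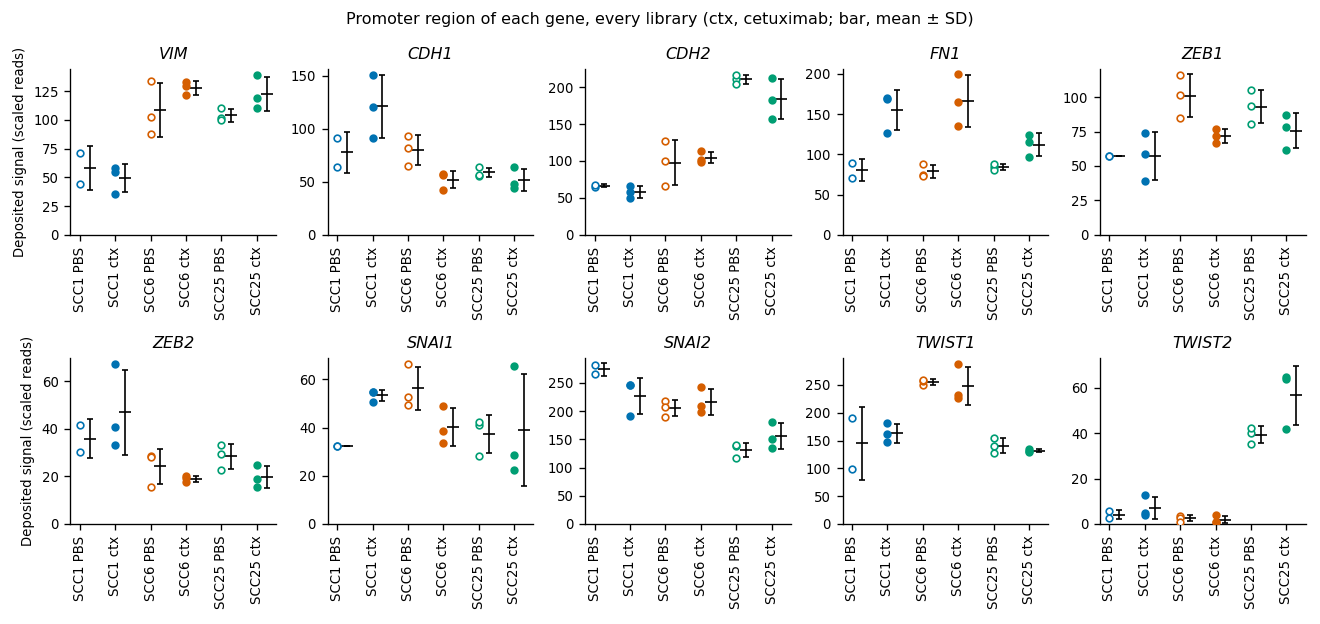
Deposited signal of the promoter region of each of the 10 genes, with 1 point per library (open for PBS, filled for cetuximab, labelled ctx) and the mean ± SD beside it, on vertical axes that start at 0. The treated SCC1 and SCC6 points lie above the untreated ones at FN1, and TWIST2 is at 35.3 or more in each SCC25 library and at 12.7 or less elsewhere.

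In 1 fit with the line as a covariate, 62 regions passed the filter, of which 7 were higher after cetuximab (11.3%, against 5.14% of all regions) and 3 lower (4.84%, against 7.04%). The higher regions were the FN1 promoter and that 76.9 kb from the FN1 start, CDH1 at 61.3 kb, CDH2 at 112 and 30.9 kb, ZEB1 at 187 kb and TWIST1 at 38.4 kb. Of these, CDH2 at 30.9 kb and ZEB1 at 187 kb were listed at 1 read in every SCC1 and SCC25 library, except for 2 reads in 1 library at CDH2, so they passed the filter through SCC6 and are no result for the other lines. CDH2 at 30.9 kb did not pass in SCC6 alone (limma adjusted p = 0.0574). The share of higher regions counts both, and nothing is read from it. The lower ones were VIM at 11.8 kb upstream, FN1 at 2.24 kb and TWIST1 at 16.9 kb. That of VIM (limma adjusted p = 0.032) was lost without either SCC1 PBS library or any 1 of the SCC6 PBS libraries (0.0516 to 0.084). That of FN1 at 76.9 kb (limma adjusted p = 0.0404) was lost without SCC1 cetuximab replicate 1, SCC1 PBS replicate 3 or any 1 of the SCC6 libraries (0.0515 to 0.0954). That of ZEB1 (limma adjusted p = 0.0167) was lost with the GC trend removed (0.585). By the interaction, the effect of cetuximab differed among the lines at 13 regions (21.0%, against 13.2% of all regions), or at 8 within gene bodies alone and at 8 with a replicate block and the GC trend removed. These were 4 regions of TWIST1, 3 of FN1, 2 of VIM and 1 each of CDH1, CDH2, ZEB2 and TWIST2. These fits and those per line share libraries. The count over all lines was 5 without SCC6 cetuximab replicate 1, and 6 without SCC1 PBS replicate 3 or SCC6 PBS replicate 2.

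Between the lines, 60 regions passed the filter in the PBS libraries. SCC6 was higher than SCC1 in 20 (33.3%, against 30.7% of all regions) and lower in 11 (18.3%, against 30.5%). SCC25 was higher than SCC1 in 22 (36.7%, against 28.2%) and lower in 11 (18.3%, against 23.1%), or 19 and 16 after centring. Centring also took all regions of that contrast from 24364 higher and 19927 lower to 20868 and 27523. SCC25 was higher than SCC6 in 20 (33.3%, against 36.7%) and lower in 18 (30.0%, against 32.1%). The 3 contrasts share PBS libraries. Some of the regions counted were at or near 1 read in a line and passed the filter through another, such as that 4.92 kb upstream of FN1 and the TWIST2 promoter. Nothing is read from these shares about the 10 genes as a group.

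The order of the lines differed from gene to gene. The VIM promoter was lowest in SCC1, with log2 differences of 0.91 in SCC6 (limma adjusted p = 0.00202) and 0.87 in SCC25 (limma adjusted p = 0.00365). SCC6 and SCC25 did not differ beyond their spread there (95% interval -0.45 to 0.38). The region at the main VIM start had 153, 131 and 134 in SCC25, 76.1, 68.2 and 67.4 in SCC6 and 59.8 and 60.3 in SCC1, so SCC25 stood above both. The CDH2 promoter had a mean of 66.6 ± 2.17 (SD, n = 2) in SCC1, 97.9 ± 30.6 (n = 3) in SCC6 and 211 ± 5.96 (n = 3) in SCC25. Its steps were 0.50 (limma adjusted p = 0.0495) and 1.15 (limma adjusted p = 5.6e-05) on the log2 scale. At the FN1 promoter no contrast passed (limma adjusted p of 0.947, 0.736 and 0.618).

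The CDH1 promoter had a mean of 77.7 ± 19.7 (SD, n = 2) in SCC1, 79.8 ± 14.1 in SCC6 and 58.8 ± 4.60 in SCC25 (n = 3 each), and no contrast passed. Its intronic region 53.0 kb from the start did differ, at 7.81 and 7.82 in SCC1, 62.2 to 70.7 in SCC6 and 46.2 to 61.4 in SCC25. The log2 differences from SCC1 were 2.96 (limma adjusted p = 7.81e-08) and 2.62 (limma adjusted p = 9.48e-07).

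Among the factors, the ZEB1 promoter was lowest in SCC1, with log2 differences of 0.80 in SCC6 (limma adjusted p = 0.0017) and 0.69 in SCC25 (limma adjusted p = 0.00644). The ZEB1 region just 3′ of it had 18.2 and 13.4 in SCC1 and 46.9 to 61.9 in SCC25 (limma adjusted p = 0.000422). The TWIST1 promoter was higher in SCC6 than in SCC1 by 0.88 (limma adjusted p = 0.00126). The SNAI2 promoter was lower in SCC6 than in SCC1 (-0.42, limma adjusted p = 0.01) and lower again in SCC25 (-0.64, limma adjusted p = 0.00012). The region 1.81 kb upstream of SNAI2 had 350.0 and 303 in SCC1 and 32.6 to 64.2 in SCC6, a log2 difference of -2.83 (limma adjusted p = 2.08e-08). The TWIST2 promoter had 40.3, 35.3 and 42.4 in SCC25, 2.60 and 5.58 in SCC1 and 1.09 to 3.62 in SCC6. It held 2 and 5 reads in the SCC1 and 1 to 4 in the SCC6 PBS libraries, so it passed the filter through SCC25. The log2 differences of SCC25 from SCC1 (3.05) and from SCC6 (3.61) therefore have no certain size. The latter ran from 2.58 to 3.93 over the alternatives.

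Some regions were listed at 1 read in every PBS library of a line and well covered in another, and no fold is given for them. The ZEB2 region 131 kb from the start was at 1 read in the 3 SCC6 libraries, and had 104 and 100.5 in SCC1 and 53.9 to 62.7 in SCC25. It had no peak in any SCC6 library and peaks in 3 SCC1 and 4 SCC25 libraries. The FN1 region 4.92 kb upstream had 62.8, 40.1 and 46.8 in SCC6 and 1 read in each SCC1 and SCC25 PBS library, and a peak in the 6 SCC6 libraries alone. By contrast, the TWIST1 region 37.5 kb from the start was above 1 read in every PBS library. It had 107 to 112 in SCC6, 14.3 and 7.82 in SCC1 and 12.7 to 19.5 in SCC25. SCC6 stood above SCC1 there by 3.26 on the log2 scale (limma adjusted p = 2.97e-07).

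**Figure D4:**
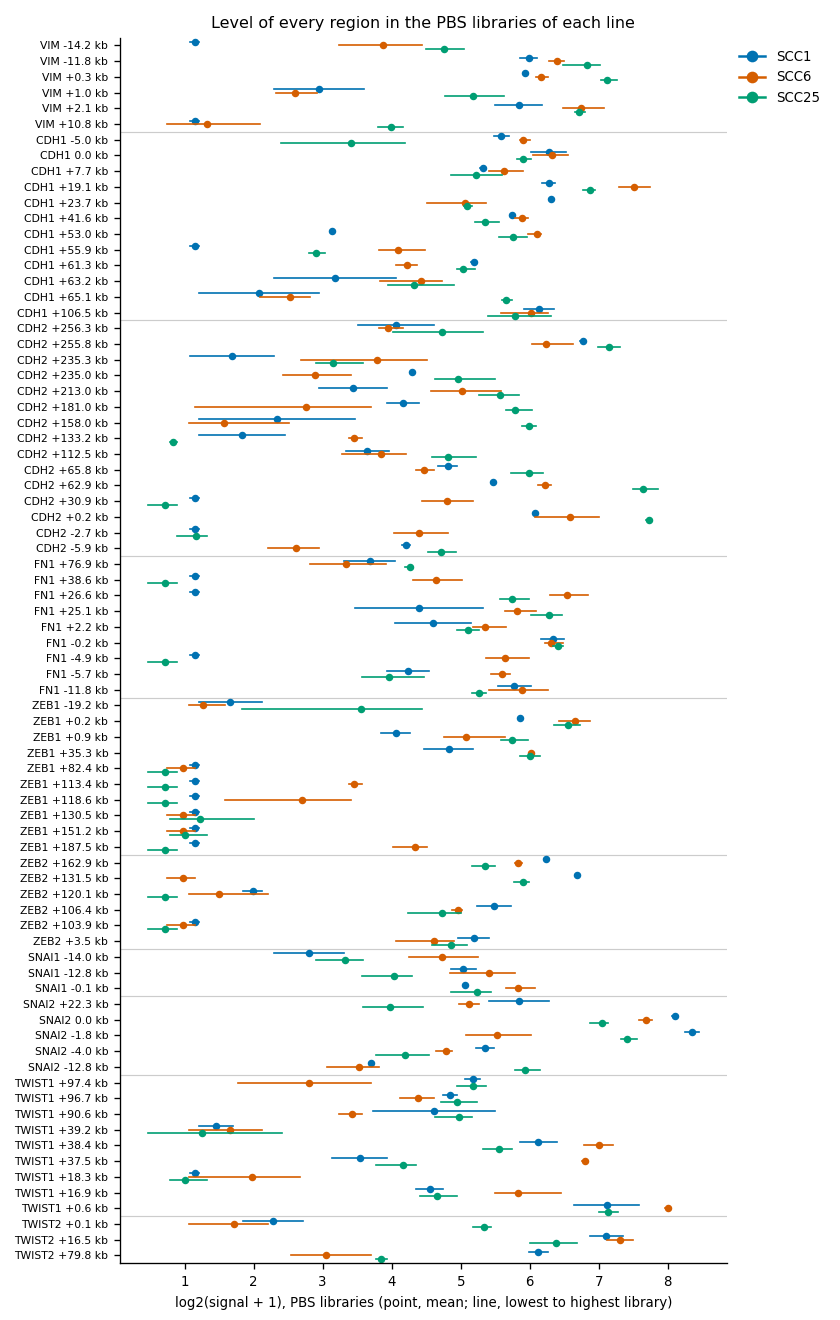
Log2(signal + 1) of all 78 regions in the PBS libraries of SCC1 (n = 2), SCC6 (n = 3) and SCC25 (n = 3), with the mean as a point and the lowest to highest library as a line. The lines lie together at the FN1 promoter and far apart at the region 131 kb from the ZEB2 start.

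The deposited peak lists were called in each library on its own. A peak in all libraries of a line was found at 21 of the 78 regions in SCC6, 7 in SCC25 and 4 in SCC1, and no peak in any library at 9, 23 and 55. Peaks in 1 line alone were found at 20 regions in SCC6, 8 in SCC25 and 0 in SCC1. The same counts over all regions are not given here, so nothing is read from these counts about the genes described as a group. Peak lists and signal did not always go together, since 20 of the 518 peaks over these regions fell on a listed 1 read, all within ZEB1 and ZEB2. The ZEB2 region 120 kb from the start, for example, had a peak in the 6 SCC6 libraries and 1 to 3 reads in each. SNAI2 at 3.97 kb upstream had peaks in 2 SCC6 libraries alone, with 15 to 39 reads in each SCC1 library. The lists differ in length, from 13035 peaks in SCC1 cetuximab replicate 2 to 101272 in SCC6 cetuximab replicate 3, and the regions with a peak ran from 6 to 61 in the same libraries. The part of list length in the differences between lines was not tested. Without SCC1 cetuximab replicate 2 the count in SCC1 was 7, and without SCC25 cetuximab replicate 3 it was 13 in SCC25.

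**Figure D5:**
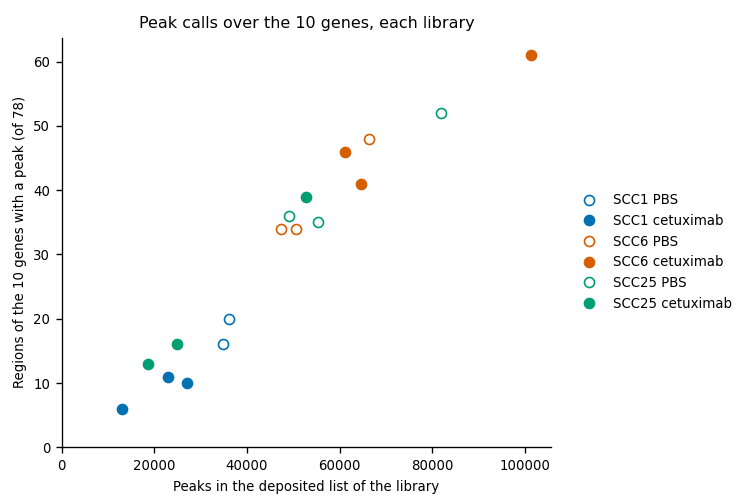
Number of the 78 regions with a peak in each library against the number of peaks in the library's deposited list, with open points for PBS and filled points for cetuximab. The regions with a peak run from 6 in SCC1 cetuximab replicate 2 to 61 in SCC6 cetuximab replicate 3, the shortest and the longest list.

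In the central 300 bases, 26.9% of the 78 regions held the E-box CAGGTG, beside 22.6% of all regions. TGANTCA was in 32.1% beside 31.5%, GCCNNNGGC (read by TFAP2 factors) in 8.97% beside 11.8%, and GGAATG (read by TEAD factors) in 17.9% beside 21.9%. These are letter matches on either strand and not observed binding.

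Other genes of the transition were read at 1 promoter region each. Of 25 epithelial promoters tested in SCC6, 8 fell, 1 rose and 16 did not pass, with a median log2 change of -0.32. Among the SCC6 promoter regions of all genes, picked in the same way, 12.0% were lower and 5.8% higher. CTNND1 (p120 catenin, which binds E-cadherin) fell (log2 change -0.59, limma adjusted p = 4.98e-05), as did MAL2, an apical transport protein (log2 change -0.49, limma adjusted p = 0.000849). In SCC1, 4 of 25 rose and none fell, beside 12.7% and 2.79% of such regions. LLGL2, a polarity protein, rose (log2 change 1.03, limma adjusted p = 5.71e-05), as did ESRP2, an epithelial splicing factor (log2 change 0.80, limma adjusted p = 0.000737). The squamous markers, summed, had 769 to 1057 with cetuximab in SCC1 and 520 to 626 with PBS, and their part in the SCC1 result was not tested.

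Of 23 mesenchymal promoters tested in SCC6, 5 rose, 3 fell and 15 did not pass, with a median log2 change of 0.075. Among the promoter regions of all genes, 5.8% were higher and 12.0% lower. TAGLN, an actin-binding protein of contractile cells, rose (log2 change 1.14, limma adjusted p = 3.28e-05). In SCC1, 4 of 24 rose and none fell, beside 12.7% and 2.79%. Of other factors and microRNA genes linked to the transition, 1 of 10 fell in SCC6 and none of 11 passed in SCC1 by limma, where 2 had an unadjusted p under 0.05, beside the same shares. The promoter region of MIR200C, whose product represses ZEB1 and ZEB2, was listed at 1 read in every library and was not tested. So were those of MIR141 and of the junction genes OCLN, CLDN4, MARVELD2 and JUP, and nothing is read from these values. In SCC25 limma called none of the 25 epithelial, 24 mesenchymal and 11 other promoters, beside 0.0698% of the promoter regions of all genes. At an unadjusted p under 0.05 there were 2, 2 and 0, and edgeR called 1. The 3 lists together had 8 calls in SCC1, and 1 without SCC1 PBS replicate 3, 4 without cetuximab replicate 1, 14 without cetuximab replicate 2, and 5 without cetuximab replicate 3 or PBS replicate 1. In SCC6 they had 6 higher and 12 lower, or 7 and 5 with the GC trend removed, and 10 in all without SCC6 PBS replicate 3.

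Across the 17 libraries, the protein-coding promoter regions whose log2 signal was most like that of VIM were those of FABP6 (Pearson's r = 0.968), MYOCD (0.949), PCDH20 (0.942), ZNF254 (0.936) and the shared promoter of ZNF569 and ZNF570 (0.933). For CDH1 they were RNF135 (0.945), ADAM10 (0.923), the shared promoter of RANBP10 and TSNAXIP1 (0.920), that of ZNF10 and ZNF891 (0.915) and GRK6 (0.913). They were picked from 12375 promoter regions as a description, and the points share libraries, lines and scaling.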

How the data were processed

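ATAC-seq libraries of SCC1, SCC6 and SCC25 treated with cetuximab or PBS were used as the authors deposited them. Per the labels and the study's methods, reads were trimmed with Trim Galore 0.5.0, aligned with Bowtie2 2.3.2 to hg19 (GRCh37), cleaned of duplicates with Picard 2.18 and filtered with SAMtools 1.9. Broad peaks were called per library with MACS2 and merged with DiffBind, whose versions and cutoffs are not given in the sources used here. The deposited region table holds a signal, in which each library's whole reads (at least 1 in every region, for a reason not given in the sources used here) are multiplied by a factor of its own, and dividing by that factor left 100% of values within 0.001 of a whole number. The deposited peak lists hold a fold enrichment (a ratio over the local background) and the −log10 of p and q.

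log2(signal + 1) was tested with limma 3.58.1 (trend, robust, two-sided) in R 4.3.3 for each line, over all lines with the line as covariate, for the interaction, and between lines in PBS libraries. edgeR 4.0.16 and DESeq2 1.42.0 ran on recovered reads as alternatives, where edgeR called 11043 regions in SCC1, 24745 in SCC6 and 968 in SCC25. The script was tested on simulated data. The study's methods give an approximate number of reads per sample, but the total of each library is not given in the sources used here. Precision therefore rests on the reads in regions and the spread between libraries. Regions were annotated with GENCODE 44. Per gene, the text names the promoter region (within 1 kb of a start site, highest mean), the region with the smallest adjusted p in each direction within a line, that of the interaction and that of the PBS contrasts, and other regions named were chosen after their values were seen. Replicate numbers gave no sign of pairing libraries, and the main fits were unpaired. Genes, regions and lists were chosen with earlier results of these data known. Some genes and sequences of these lists are not reported here.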

Additional observations from a re-analysis of the deposited data

Results flagged for a closer look

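At 9 of the named regions the effect of cetuximab differed between the 3 lines by limma's interaction F-test. The adjusted p was 0.000179 at the region 11.8 kb upstream of VIM, with -3.71 on the log2 scale for SCC1, -0.72 for SCC6 and -0.12 for SCC25. It was 0.000644 beyond the end of FN1 (76.9 kb from the start) and 0.00121 at the FN1 exon 26.6 kb from the start, where SCC6 gave 2.78 and -1.88. At TWIST1 it was 0.00141 at 97.4 kb and 0.00447 at 37.5 kb from the start, where SCC1 gave -3.60 and 1.98. It was 0.00558 in the CDH2 intron 62.9 kb from the start, where SCC1 and SCC6 libraries moved in opposite directions without a call in either line. It was 0.00946 in ZEB2 106 kb from the start (-2.04 in SCC6), 0.0305 beyond TWIST2 79.8 kb from its start (-2.58 in SCC1) and 0.0341 at the CDH1 promoter (0.63 in SCC1 and -0.60 in SCC6). Groups of 2 or 3 libraries were too small for a test of single outlying libraries.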

How the results depend on the processing

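Of 44 named results past the threshold, 28 held under each alternative that was run and 16 lost it under at least 1, and none changed sign. The regions called in SCC1 were 5 with the lowest 50% of regions left out, 5 with DESeq2, 4 within gene bodies alone and 2 to 8 without 1 library. Over all lines there were 5 to 13 without 1 library. Gene bodies alone gave 8 for the interaction and 24 for SCC25 against SCC6 in PBS. Replicate numbers gave no sign of pairing libraries, with correlations of same-numbered deviations from -0.042 to 0.026. Groups of 2 or 3 libraries cannot exclude pairing. A replicate block gave 9, 22, 0, 8 and 13 regions in SCC1, SCC6, SCC25, all lines and the interaction. The replicate block with the GC trend removed gave 8 for the interaction, beside 9092 of all 86315 regions. Of list promoters, centring gave 13 in SCC1 and edgeR 1 in SCC25, and without 1 library there were 1 to 14 in SCC1 and 10 to 14 in SCC6. Peaks with a −log10 q of at least 5 gave 0 regions in each line, and cover of at least 50% gave 1 in SCC1, 7 in SCC6 and 1 in SCC25. Without 1 library the peak count was 4 to 7 in SCC1 and 7 to 13 in SCC25. Signs turned at 7 results that had not passed. After centring, the log2 change was -0.035 at the CDH2 promoter in SCC6, 0.012 at SNAI1 in SCC25, -0.096 at SNAI2 in SCC6 and 0.14 at ZEB1 in SCC1. Quantile normalization gave 0.0060 at SNAI1, 0.0042 at TWIST1 in SCC6 and 0.062 at ZEB1. edgeR gave 0.033 at SNAI1 and 0.074 at ZEB1, and DESeq2 0.095 at SNAI1, -0.021 at SNAI2 and 0.10 at ZEB1. Removing the GC trend gave 0.079 at TWIST1 in SCC6, also with the replicate block, which gave -0.16 at TWIST1 in SCC1. The replicate block alone gave 0.20 at ZEB1 in SCC1. Without 1 library these ran from -0.12 to 0.35 (CDH2), -0.51 to 0.24 (SNAI1), -0.0054 to 0.14 (SNAI2), -0.23 to 0.71 (TWIST1 in SCC1), -0.16 to 0.019 (TWIST1 in SCC6), -0.55 to 0.13 (VIM in SCC1) and -0.25 to 0.20 (ZEB1). With all libraries in 1 fit, the adjusted p in SCC6 was 0.061 at the CDH1 promoter, 0.131 at the ZEB1 promoter, 0.158 upstream of SNAI1 and 0.163 upstream of SNAI2. Over all regions of SCC25, edgeR called 968 and limma 272. The cause was not tested. SCC1 had at most 4171650 reads in regions per library and 2 PBS libraries, which limits what could be detected there. In SCC25, cetuximab replicates 1 and 3 had only 3214656 and 2513828, which limits detection in that line too.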
